A study of Homo sapiens with 10 samples.

Results

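The metallothionein 1 and 2 genes were examined in MEG-01 cells, a human line derived from a megakaryoblastic leukemia, after transfection with a precursor of the microRNA miR-1225-3p. The genes were MT1A, MT1B, MT1E, MT1F, MT1G, MT1H, MT1M, MT1X and MT2A, and every array probe assigned to a RefSeq transcript of these 9 genes was used. They had 11 probes of 42405 on the array, since MT1H and MT1X had 2 probes each and the other genes had 1. One group of cells received 200 nM of the miR-1225-3p precursor and the other 200 nM of a scrambled precursor as negative control, both by nucleofection, and RNA was taken after 24 hours. Each group had 5 one-color arrays, labelled as biological replicates of a single line with nothing that says how far apart the cultures were grown. The source label of the control cells speaks of no treatment, while their titles and the study's methods describe the scrambled precursor, which is taken to hold here.

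Metallothioneins are small cysteine-rich proteins that bind zinc, copper and cadmium and buffer the free metal of the cell. Their genes lie in a cluster on chromosome 16 and are transcribed when the zinc-sensing factor MTF1 binds metal response elements ahead of the gene. They also respond to glucocorticoids and to oxidative stress, and are expressed in blood cells among many other tissues. A microRNA guides the silencing complex to messenger RNAs mainly through the bases of its seed.

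The mature microRNA is shown because it is the agent that separates the groups. Its sequence was taken from RefSeq (GRCh38.p14, minus strand, chr16:2090195-2090216), with the seed, bases 2 to 8 from the 5′ end, in capitals.
miR-1225-3p: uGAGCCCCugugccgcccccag

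The table of RefSeq promoters used here matched 4 of the 9 genes, MT1B, MT1H, MT1X and MT2A, and did not match MT1A, MT1E, MT1F, MT1G and MT1M. The 250 bases ahead of the start of MT2A, the single gene of the metallothionein 2 class, and of MT1X, whose 2 probes gave unequal results, are shown to place the metal response elements of this family. Both are on the plus strand of GRCh38.p14, at chr16:56608334-56608583 for MT2A and chr16:56682220-56682469 for MT1X, and capitals mark matches to the core of the element, TGCACNC or TGCGCNC, on either strand.
MT2A: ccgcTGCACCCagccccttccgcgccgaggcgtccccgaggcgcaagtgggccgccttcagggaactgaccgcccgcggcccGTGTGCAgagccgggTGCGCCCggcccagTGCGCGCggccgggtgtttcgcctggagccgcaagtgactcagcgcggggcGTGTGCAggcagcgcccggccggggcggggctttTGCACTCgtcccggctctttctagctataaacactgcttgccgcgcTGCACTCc
MT1X: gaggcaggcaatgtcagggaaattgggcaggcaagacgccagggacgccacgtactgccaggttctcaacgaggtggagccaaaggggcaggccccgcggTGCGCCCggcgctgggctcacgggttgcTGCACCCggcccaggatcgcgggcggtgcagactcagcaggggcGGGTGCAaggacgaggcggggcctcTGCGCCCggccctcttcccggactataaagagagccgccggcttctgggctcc

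MT2A had 7 matches and MT1X had 4 in these 250 bases, none of which overlap. MT1H had 8 matches and MT1B had 3 in the same window. Of 35116 promoters of this length, 24.8% held at least 1 match, 1.58% at least 3, 0.37% at least 4, 0.0313% at least 7 and 0.0171% at least 8. All 4 metallothionein promoters thus stood in the upper end of this distribution, as a description of their letters and not of any binding.

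On the arrays, 10 of the 11 metallothionein probes were lower in miR-1225-3p cells and none was higher. These calls are limma's, with p-values adjusted over the 20648 tested probes and a threshold of 0.05. Of all tested probes, 18.7% were called lower in the same way, and 35% were called in either direction. Each of the 9 genes had a called probe, and for 6 probes, against 12.4% of all tested, the fall was also over 2-fold. The median log2 fold change over the 11 probes was -1.04, against -0.09 over all tested probes, and 15.5% of all tested probes had a larger fall than that median. This result holds for values normalized by cyclic loess, the procedure the study's methods name. When each array was instead scaled to its 75th percentile, 2 of the 11 probes were called lower, those for MT1F and one of the MT1X probes. In that setting 3262 of all 20648 tested probes were called lower, a share close to that of the metallothionein probes.

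All 11 probes were well above background on all 10 arrays, and no spot of the arrays was saturated, so each value is a measured one. Between 41.95% and 61.18% of the spots of an array were well above background. Among the megakaryocytic genes used to check the cell line, 6 of 10, including ITGA2B, ITGB3 and GATA1, were well above background on all arrays, while PF4 was so on 0 arrays. Of the 3 fibroblast genes, DCN and COL1A2 were well above background on 0 arrays and COL1A1 on 6. Of the other lineages checked, 3 of 3 erythroid genes, 2 of 2 monocyte genes, 1 of 3 T cell, 1 of 3 B cell, 1 of 2 epithelial and 1 of 2 endothelial genes were well above background on all arrays. There were 2 slides. Slide 1 carried 2 arrays of miR-1225-3p cells and 3 of control cells, and slide 2 carried 3 and 2. The array of miR-1225-3p replicate 5 stood apart from the others of its group, and its value is given for each of the 11 metallothionein probes. Over all called probes, its difference from the scrambled mean was in the median 15.7% of that of miR-1225-3p replicates 1 to 4.

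MT2A is the most widely expressed member of the family. Its normalized log2 signals were 16.58, 17.18, 16.78, 16.98 and 17.52 on miR-1225-3p replicates 1 to 5 and 18.17, 18.14, 17.62, 17.75 and 17.43 on scrambled replicates 1 to 5. The groups overlapped, since miR-1225-3p replicate 5 lay above scrambled replicate 5, while the other miR-1225-3p arrays lay below every control array. MT2A fell by 0.82 on the log2 scale, to 56.8% of the control level (SE 0.22, adjusted p = 0.0224 by limma). Leaving out miR-1225-3p replicate 5 gave -0.95 (adjusted p = 0.00305 by limma), and 75th percentile scaling gave -0.05 (adjusted p = 0.895 by limma). The call was also lost when miR-1225-3p replicate 3, scrambled replicate 1 or scrambled replicate 2 was left out, with adjusted p up to 0.0562 over all arrays left out in turn.

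MT1A encodes a metallothionein 1 isoform and had signals of 14.88, 15.53, 15.34, 15.44 and 15.65 on miR-1225-3p replicates 1 to 5. The control arrays gave 16.75, 16.49, 16.17, 16.29 and 15.84. All 5 miR-1225-3p arrays lay below all 5 control arrays, the lowest being miR-1225-3p replicate 1. MT1A fell by 0.94 on the log2 scale (SE 0.20, adjusted p = 0.0152 by limma).

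MT1E, another isoform, had signals of 13.57, 14.65, 14.23, 14.65 and 14.38 with miR-1225-3p and of 15.62, 15.32, 15.16, 15.26 and 14.84 in the controls. Again the groups did not overlap, and miR-1225-3p replicate 1 was the lowest array. MT1E fell by 0.95 on the log2 scale (SE 0.23, adjusted p = 0.0182 by limma). MT1B gave 14.13, 15.13, 14.81, 14.96 and 15.02 with miR-1225-3p and 16.35, 16.10, 15.72, 15.83 and 15.35 in the controls, with no overlap. MT1B fell by 1.06 (SE 0.24, adjusted p = 0.0160 by limma), which is 2.08-fold. The isoforms MT1A, MT1B and MT1E thus had nearly the same fall and the same lowest array.

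MT1G and MT1M gave falls of the same size at lower signals. MT1G gave 10.30, 11.21, 10.65, 11.15 and 11.01 on the miR-1225-3p arrays and 11.90, 11.79, 11.77, 11.77 and 11.28 on the control arrays. The groups did not overlap, and scrambled replicate 5 lay well under the other controls. MT1G fell by 0.84 on the log2 scale (SE 0.20, adjusted p = 0.0183 by limma). MT1M gave 10.34, 11.71, 11.46, 11.99 and 11.49 with miR-1225-3p and 12.58, 12.73, 12.34, 12.76 and 11.79 in the controls. Here the groups overlapped, as miR-1225-3p replicate 4 lay above scrambled replicate 5. MT1M fell by 1.04 (SE 0.31, adjusted p = 0.0302 by limma), the called probe with the highest adjusted p, and it was no longer called when miR-1225-3p replicate 2 or 3 or any of scrambled replicates 1 to 4 was left out, at adjusted p up to 0.0651.

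**Figure D1:**
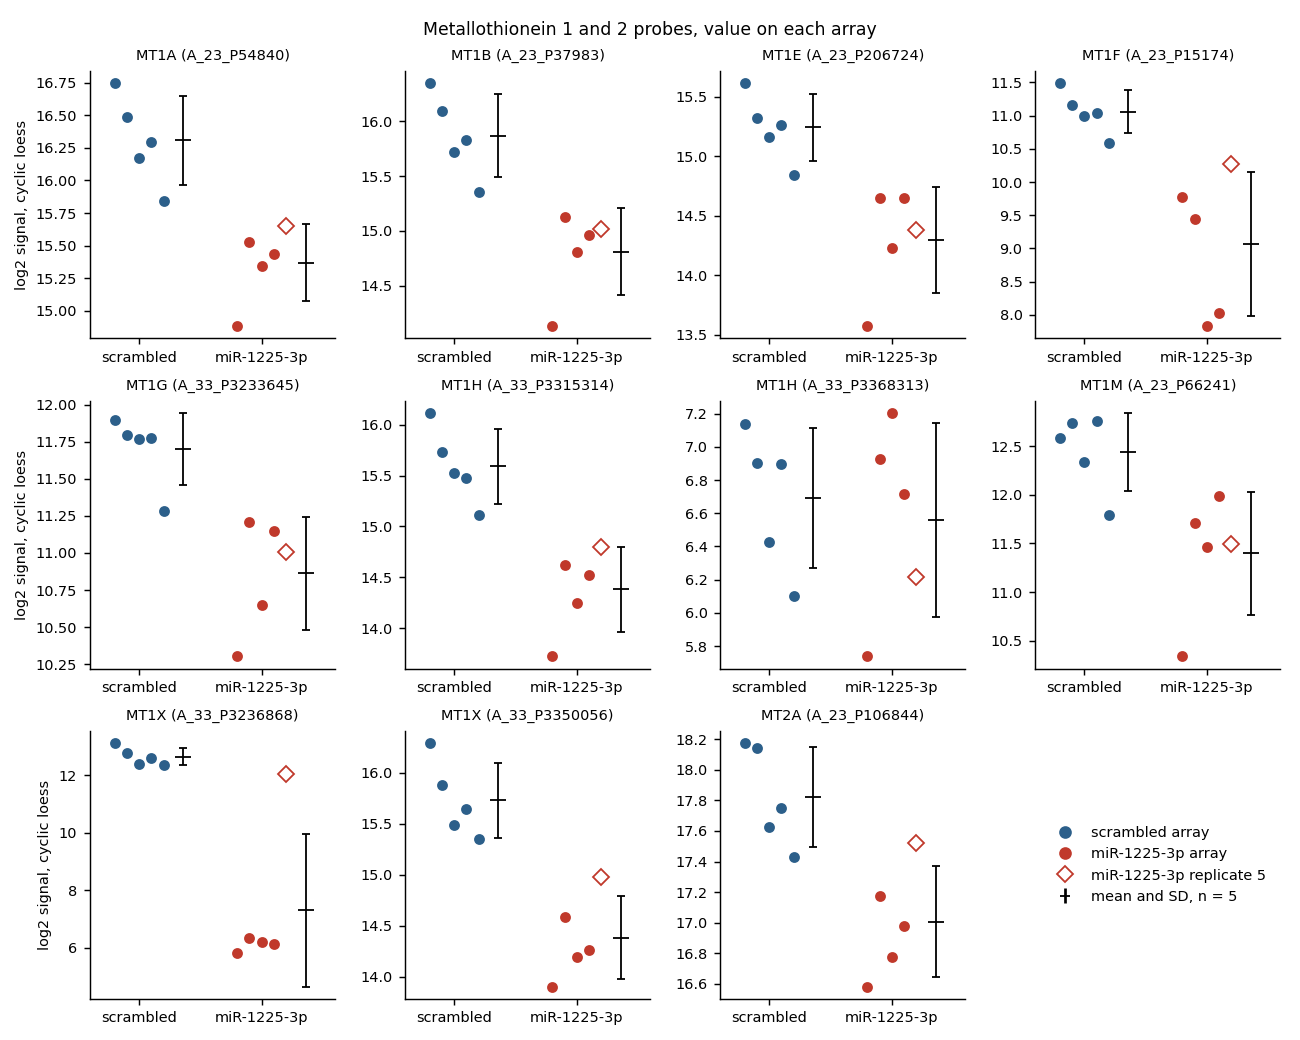
Cyclic loess normalized log2 signal of each of the 11 metallothionein probes (y axis, own range for each panel) on the 5 scrambled arrays (blue) and the 5 miR-1225-3p arrays (red), with miR-1225-3p replicate 5 as an open diamond and the mean and SD of each group (n = 5) in black. The miR-1225-3p arrays lie below all control arrays in 8 panels, and the groups overlap for MT2A, MT1M and the MT1H probe A_33_P3368313.

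For 8 of the 11 probes all miR-1225-3p arrays lay below all control arrays, which was so for 4.82% of all tested probes. This separation too depended on the normalization, as it held for 2 of the 11 probes with 75th percentile scaling and for 4 with none. The 8 called probes other than those for MT1F and the MT1X probe A_33_P3236868 had log2 fold changes between -1.35 and -0.82, that is falls between 1.76-fold and 2.54-fold. They were grouped this way after their values were seen. Their deviations from the group means went together from array to array, with Pearson's r between 0.55 and 0.98 (median 0.89) over the 28 pairs, each across the same 10 arrays. These probes share the arrays and their normalization, and transcripts of near-identical sequence, so that the correlations are no independent evidence. How far one probe also takes up the transcript of another gene of the family was not tested, since no probe sequence was used here.

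MT1X encodes an isoform known to respond strongly to metal, and its probes differed most. The probe A_33_P3350056 had signals of 13.90, 14.58, 14.19, 14.26 and 14.97 with miR-1225-3p and of 16.29, 15.88, 15.48, 15.65 and 15.35 in the controls. Its groups did not overlap, and it fell by 1.35 on the log2 scale, to 39.3% of the control level (SE 0.24, adjusted p = 0.0144 by limma). With 75th percentile scaling its log2 fold change was -0.68 (adjusted p = 0.0602 by limma).

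The MT1X probe A_33_P3236868 had signals of 5.82, 6.32, 6.21 and 6.13 on miR-1225-3p replicates 1 to 4, of 12.05 on miR-1225-3p replicate 5, and of 13.11, 12.79, 12.39, 12.59 and 12.36 on the control arrays. The first 4 arrays were thus far below the controls, and the replicate 5 array only just below the lowest of them. The log2 fold change was -5.34 (SE 1.06, adjusted p = 0.0146 by limma). With another background correction, normexp on median signals, it was -4.51 (adjusted p = 0.0119 by limma), so its size depended on the handling of background. Without miR-1225-3p replicate 5 it was -6.51 (adjusted p = 3.57e-07 by limma), while on that array alone the difference from the control mean was -0.60. The SD of the normalized log2 signal was 2.66 over the 5 miR-1225-3p arrays and 0.31 over the 5 control arrays.

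Whether the probes of a gene moved alike was tested on the difference between them within each array, with an exact permutation test over arrays, two-sided, for the 2 genes with 2 probes. For MT1X the log2 signal of A_33_P3350056 minus that of A_33_P3236868 was 8.09, 8.26, 7.98 and 8.13 on miR-1225-3p replicates 1 to 4, 2.92 on replicate 5, and between 2.99 and 3.17 on the controls. The mean of this difference was 4.00 higher with miR-1225-3p (exact permutation p = 0.0476, and the same after adjustment over the 2 genes). The order of the arrays in this difference is split, with miR-1225-3p replicates 1 to 4 above every control and replicate 5 below every control.

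MT1H likewise had probes that did not move alike. The probe A_33_P3315314 had signals of 13.72, 14.62, 14.25, 14.52 and 14.79 with miR-1225-3p and of 16.12, 15.73, 15.52, 15.48 and 15.11 in the controls, with no overlap. It fell by 1.21 on the log2 scale (SE 0.24, adjusted p = 0.0146 by limma). The probe A_33_P3368313 gave 5.74, 6.93, 7.20, 6.72 and 6.22 with miR-1225-3p and 7.14, 6.91, 6.42, 6.90 and 6.10 in the controls. These values overlapped throughout, and the log2 fold change of -0.13 had a 95% interval from -0.80 to 0.53 (adjusted p = 0.739 by limma). Its sign turned under some alternatives. The difference between the MT1H probes was 1.08 smaller on the log2 scale with miR-1225-3p than in the controls, at an exact permutation p of 0.00794, which is the smallest that 5 arrays against 5 can give (adjusted over the 2 genes, 0.0159). With 75th percentile scaling or no normalization this change was -0.44 (exact permutation p = 0.0397).

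MT1F encodes a further isoform and had its own pattern across the arrays. Its signals were 9.77, 9.44, 7.83, 8.03 and 10.27 on miR-1225-3p replicates 1 to 5 and 11.50, 11.16, 10.99, 11.04 and 10.59 on the controls. The groups did not overlap, and replicates 3 and 4 were the lowest, not replicate 1 as for most other probes. MT1F fell by 1.99 on the log2 scale, to 25.2% of the control level (SE 0.46, adjusted p = 0.0165 by limma). With 75th percentile scaling the log2 fold change was -1.58 (adjusted p = 0.0151 by limma), and without normalization it was -2.01 (adjusted p = 0.0489 by limma). Its deviations had r between -0.40 and 0.60 with those of the other 10 probes, across 10 arrays.

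**Figure D2:**
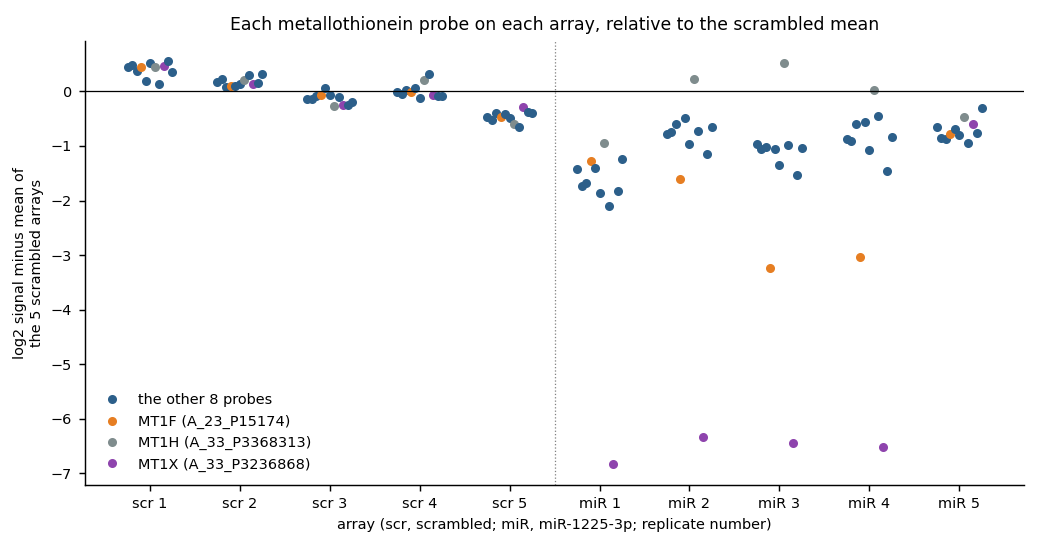
Normalized log2 signal of each metallothionein probe on each array minus that probe's mean over the 5 scrambled arrays (y axis), with arrays along the x axis and 3 probes colored apart. The 8 probes in blue lie below 0 on every miR-1225-3p array, replicate 5 included, while the MT1X probe A_33_P3236868 is near -6 or lower on replicates 1 to 4 and -0.60 on replicate 5.

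The median difference of the 11 probes from their scrambled mean was -1.67, -0.74, -1.06, -0.87 and -0.76 on miR-1225-3p replicates 1 to 5. On scrambled replicates 1 to 5 it was 0.44, 0.15, -0.14, -0.02 and -0.46. By this median the family was lowest on miR-1225-3p replicate 1, and among the controls it was highest on scrambled replicate 1 and lowest on scrambled replicate 5. Scrambled replicate 5, the lowest control, had the highest share of spots well above background, 61.18%, and the part of this in the result was not tested.

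The values of miR-1225-3p replicate 5 are set out apart, as a description with no test. For 9 of the 11 probes this array lay below every control array. The share of all tested probes for which it did so is not given, here or for 75th percentile scaling. The count therefore describes these probes only. Over the 10 called probes, its difference from the control mean was between 9.24% and 89.6% of the mean difference of replicates 1 to 4, with a median of 62.9%, set beside the 15.7% over all called probes. The lowest share belonged to the MT1X probe A_33_P3236868, and the shares of MT2A and MT1F were 32.0% and 34.3%. The highest were those of MT1E, 89.6%, and MT1M, 89.1%. These shares hold for cyclic loess, where this array was less far below the controls than replicates 1 to 4 for all 10 called probes. With 75th percentile scaling it was further below them than replicates 1 to 4 for 8 of these 10, the exceptions being MT1F and the MT1X probe A_33_P3236868, and it lay below every control for 9 of the 11 probes.

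Because 8 of the 10 calls depended on the normalization, the values under each scaling were set side by side. The 75th percentile scaling raised the log2 fold changes of the 11 probes by between 0.03 and 0.77 over those of cyclic loess, most for MT2A. Of the 740 tested probes with a mean log2 signal above 14, a range that holds 6 of the 11 metallothionein probes, the median log2 fold change was -0.17 with cyclic loess and 0.55 with the 75th percentile. Over all tested probes cyclic loess gave a median of -0.09, the 75th percentile 0.11, quantile normalization 0.04 and no normalization -0.31. The share of all called probes that were lower was 53.6% after cyclic loess, 38.9% under 75th percentile scaling, 42.6% after quantile normalization and 85.8% without any.

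Relative to the median of all tested probes, the metallothionein median was -0.95 after cyclic loess, -0.48 under 75th percentile scaling, -0.86 after quantile normalization and -0.48 without any. The number of the 11 probes called lower was 10, 2, 10 and 2 in the same order, and 10 with the authors' own normalized values. Of all 20648 tested probes, 3869, 3262, 3063 and 1050 were called lower in that order. With the authors' values it was 3641 of 16345. The estimates of all 11 metallothionein probes were below 0 in each of these settings, except for the MT1H probe A_33_P3368313 with quantile normalization, at 0.01. MT1F and the MT1X probe A_33_P3236868 were called lower with cyclic loess, with the 75th percentile and with no normalization.

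**Figure D3:**
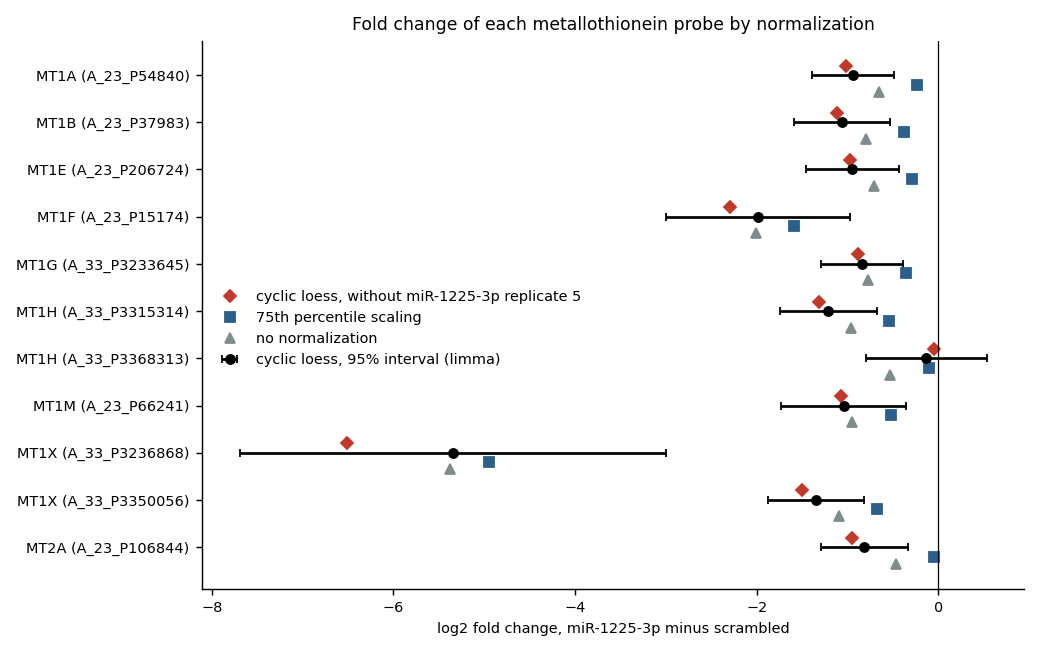
Log2 fold change of each metallothionein probe, miR-1225-3p minus scrambled (x axis), with cyclic loess and its 95% limma interval in black, without miR-1225-3p replicate 5 in red, with 75th percentile scaling in blue and with no normalization in gray. MT2A moves from -0.82 to -0.05 under the 75th percentile, while MT1F and the MT1X probe A_33_P3236868 stay at -1.58 and -4.95.

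The slides held both groups, so the fall was also estimated on each. Within slide 1, which does not hold miR-1225-3p replicate 5, the median log2 fold change of the 11 probes was -1.18, and 3 probes were called lower. There 3132 of all 20648 tested probes were called lower. Within slide 2 the median was -1.03 and 0 probes were called by limma, where 0 of all tested probes were called and 1395, among them 8 of the metallothionein probes, had an unadjusted p under 0.05. All 11 estimates were below 0 on both slides. With the slide as a block, 10 probes were called lower, against 3229 of all 20648 tested.

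Other genes of the family were examined from the same cluster. The transcribed pseudogene MT1L fell by 1.14 on the log2 scale (SE 0.23, adjusted p = 0.0146 by limma), with no overlap of the groups. For MT3, the isoform known from brain, the log2 fold change was -0.93 (SE 0.36, adjusted p = 0.0622 by limma). Its signal on miR-1225-3p replicate 5 was 10.88, above the control mean of 10.78. The probes of MT1DP, MT1IP and MT4 were not well above background on enough arrays to be tested.

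In the order of the RefSeq annotation the cluster runs MT4, MT3, MT2A, MT1L, MT1E, MT1M, MT1JP, MT1A, MT1DP, MT1CP, MT1B, MT1F, MT1G, MT1H, MT1IP and MT1X, other loci left out. MT1F and MT1X, the genes with the larger falls, are not next to each other. Of the genes before the cluster, BBS2, needed for the cilium, stood at a log2 fold change of 0.01 (limma, adjusted p = 0.968) and OGFOD1, an oxygenase, fell by 0.78 (adjusted p = 0.0290 by limma). Of those after it, NUP93, a nuclear pore protein, stood at -1.03 (limma, adjusted p = 0.0741) and HERPUD1, a protein of the endoplasmic reticulum, at -0.06 (limma, adjusted p = 0.786).

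A list of 42 genes that sense, carry or use metal, or respond with metallothioneins to other signals, was set beside the family. Each gene was represented by its tested probe with the highest mean signal. Of the 34 that could be tested, 7 were lower and 2 higher, or 26.5% called against 35% of all tested probes, and their median log2 fold change was -0.33. The zinc sensor MTF1 had a log2 fold change of 0.09 (SE 0.25, adjusted p = 0.797 by limma). Its signals were 6.53, 6.99, 6.83, 7.35 and 5.84 with miR-1225-3p and 6.48, 6.70, 6.80, 6.72 and 6.39 in the controls, so that the groups overlapped. By these probes, with cyclic loess and all arrays, none of the tested genes for glutathione synthesis and recycling (4), heme oxygenase (1) or the glucocorticoid receptor and its targets (4) passed the test. Some did so in alternatives. TSC22D3, a glucocorticoid target, stood at 0.60 (limma, adjusted p = 0.0537). It was called with 75th percentile scaling, at 0.91 (adjusted p = 0.0297 by limma), and without miR-1225-3p replicate 5, at 0.76 (adjusted p = 0.00244 by limma). Without that array PER1, of the same role, and the glutathione gene GCLC were called at -0.85 and -0.48 (adjusted p = 0.0150 and 0.0242 by limma). Calls were common in these alternatives. Of all tested probes, 11447 of 20531 were called without that array and 8394 of 20648 with 75th percentile scaling. The probes of the glucocorticoid receptor NR3C1 disagreed, since its counted probe stood at a log2 fold change of -0.38 (limma, adjusted p = 0.255), while its other tested probe, A_33_P3216297, rose by 0.90 (adjusted p = 0.0298 by limma).

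SLC30A1, the zinc exporter of the cell surface and a known target of MTF1, was also lower. Its signals were 9.10, 9.82, 9.43, 9.99 and 9.64 with miR-1225-3p and 10.28, 10.27, 10.59, 10.49 and 10.51 in the controls. All miR-1225-3p arrays, replicate 5 among them, lay below all controls, and it fell by 0.83 on the log2 scale (SE 0.18, adjusted p = 0.0152 by limma). With 75th percentile scaling its log2 fold change was -0.43 (adjusted p = 0.158 by limma), so that its call too was lost.

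The transporters SLC30A9, SLC39A1, SLC39A7 and SLC39A10 fell, with log2 fold changes of -2.23, -1.61, -2.35 and -2.37 (adjusted p = 0.0162, 0.0170, 0.0365 and 0.0188 by limma). SLC30A9 and SLC39A10 each lay well above background on all 5 control arrays but on only 2 of those with miR-1225-3p, so that their low values, and the folds that rest on them, are partly at background. On miR-1225-3p replicate 5 the 4 transporters stood at 5.47, 8.55, 10.29 and 5.94, within or just under the range of the controls. The MT1X probe A_33_P3236868 and MT2A were likewise close to the controls on that array. The zinc importer SLC39A9 and the copper exporter ATP7B also fell, with log2 fold changes of -0.79 and -0.97 (adjusted p = 0.0456 and 0.0185 by limma). The zinc importer SLC39A8 rose by 0.48 and the copper and zinc superoxide dismutase SOD1 by 0.54 (adjusted p = 0.0380 and 0.0245 by limma). SLC39A8, SOD1 and ATP7B stood at 10.61, 15.68 and 8.58 on miR-1225-3p replicate 5, each within the range of the controls. SLC39A9 stood at 5.95 on that array, below every control.

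**Figure D4:**
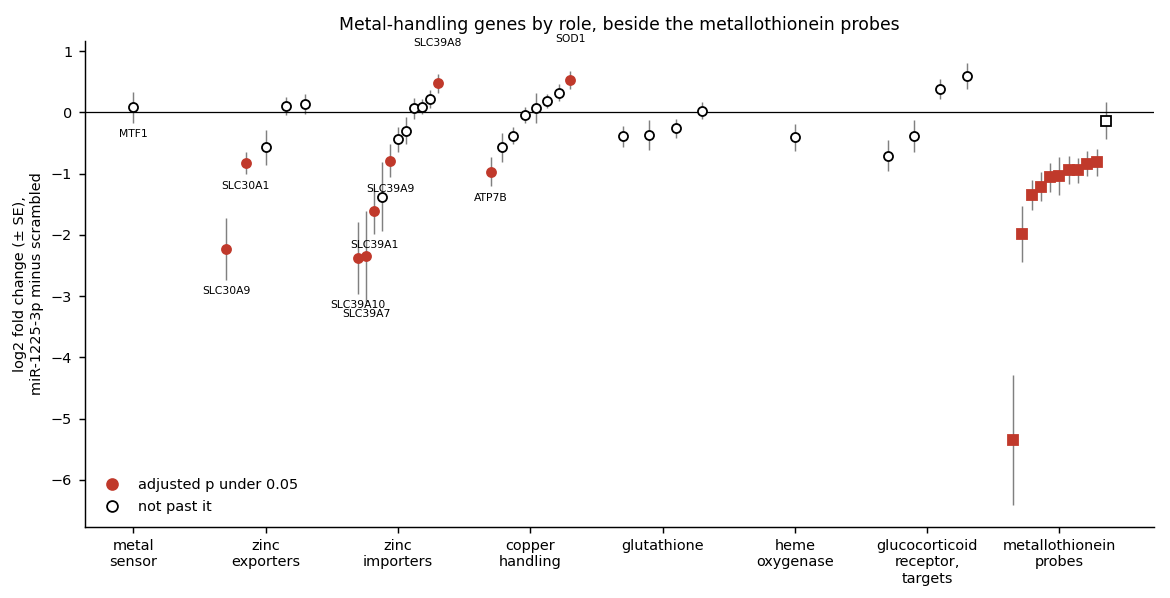
Log2 fold change with SE, miR-1225-3p minus scrambled (y axis), of the 34 tested metal-handling genes by role (x axis, circles) and of the 11 metallothionein probes (squares), filled red where the adjusted p by limma was under 0.05. MTF1 lies at 0.09, and 10 of the 11 metallothionein probes are filled, all below 0.

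The probes most like the family were sought by the correlation of their deviations from the group means with the mean deviation of the 11 metallothionein probes, across 10 arrays. Of 10461 other probes, 12 had r above 0.90, or 0.115%, and the median was -0.02. The closest were those for HLA-G (r = 0.950), PRR11 (0.926), WIPF2 (0.923), GYS1 (0.920) and SNORD116-19 (0.918). All of these probes share the arrays and the normalization with the family. The mean was not scaled by probe, so a probe with a wide spread, such as the MT1X probe A_33_P3236868, weighs more in it. The metallothionein probes themselves had r between 0.31 (MT1H probe A_33_P3368313) and 0.96 (MT2A) with the mean of the other members.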

How the data were processed

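Total RNA of 10 MEG-01 cultures was hybridized to one-color Agilent SurePrint G3 Human arrays. Scanner output was made by the authors with Feature Extraction 10.7.3.1, per the labels and the file headers, while the methods give another version. The processed signal deposited there is a background-subtracted intensity. The other intensities used were median signals of spots and of their local background. The authors also deposited log2 values for 29271 probes, cyclic loess normalized per the methods, their offset to controls not being reproduced here.

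Symbols came from the RefSeq gene table of GRCh38.p14, matched by the RefSeq transcript of each probe, which named 24910 of 42405 probes. The array's own gene names were not used. Control spots (4259) were left out, log2 processed signals of 58717 spots were normalized by cyclic loess (limma 3.58.1, R 4.3.3, fast method, 3 iterations), outlier spots were removed and the spots left for each probe averaged. The 20648 probes tested were those above background, by the scanner's flag for a signal well over it, on 3 or more arrays of one group or the other. Each probe was fitted with limma (lmFit, eBayes), with Benjamini-Hochberg adjustment over all tested probes at 0.05, and differences between probes by an exact permutation test. The number of arrays limits the precision. The limma fit and the t-test were tested on simulated log2 values with known changes. Normalization, the filter and the permutation test were not.

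The rule for names covers every probe given a metallothionein symbol, MTF1, SLC30A1, list genes called with over 2-fold change and the 5 most alike probes. The other called list genes, the neighboring genes and the groups of probes were picked after values were seen. Members and lists were chosen with earlier results of these data known. Alternatives covered normalization, source of values, background, filter, flagged spots, test, array weights, slide, replicate number and each array left out. Normexp used an offset of 50. No label says whether same-numbered arrays are paired. Deviations of same-numbered arrays had r between -0.40 and 0.06, which shows no pairing but cannot exclude it. Probe and 3′ end sequences were not used here.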

Additional observations from a re-analysis of the deposited data

Results flagged for a closer look

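Of 26 groups of 5 arrays examined by Dixon's criterion over the tested family probes, 3 held a value apart from the rest, where chance gives about 1 in 20 groups, here 1.3. On the MT1X probe A_33_P3236868, miR-1225-3p replicate 5 was far above the other arrays of its group, at 12.05. On the MT1G probe, scrambled replicate 5 was the lowest control, at 11.28. On the MT1L probe, miR-1225-3p replicate 1 was the lowest of its group, at 14.21.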

How the results depend on the processing

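The count of 10 metallothionein probes called lower became 2 with 75th percentile scaling, 2 with no normalization, 3 within slide 1, 0 within slide 2 and 0 with a replicate block, a fit in which limma called 0 of all tested probes while 8994 had an unadjusted p under 0.05. Whether the numbers pair the arrays is not known, and 10 metallothionein probes had an unadjusted p under 0.05 in that fit. It was 9 with no filter on dim probes and 9 with the methods' t-test after Benjamini-Hochberg adjustment (10 before it, at a p under 0.05), and 10 with quantile normalization, the authors' values, normexp, the stricter filter, flagged spots kept, array weights and the slide block. In alternatives chosen after seeing the data, it was 2 with the 75th percentile and 4 with no normalization, both without miR-1225-3p replicate 5. Of all 20648 tested probes, 5309 and 5410 were called lower in that order. Leaving out each array in turn gave between 8 and 10 metallothionein probes, while between 1066 and 6273 of all tested probes were called lower. The median log2 fold change of -1.04 was -0.37 with the 75th percentile and -0.28 when miR-1225-3p replicate 5 was left out as well, and leaving out each array gave between -1.20 and -0.82. The 9 metal-handling genes called, of 34 tested, became 2 with no normalization, 25 with array weights, 0 within slide 2, 0 with the replicate block, 20 with the 75th percentile without miR-1225-3p replicate 5. Of all 20648 tested probes, 1224, 14673, 0, 0 and 12611 were called in that order, against 7225 in the main fit. With each array left out in turn the metal-handling genes called numbered between 5 and 17, the highest being for miR-1225-3p replicate 5. Over all tested probes between 2375 and 11447 were then called, the highest again for that array. These changes thus went with the number of calls over the whole array. The difference between MT1H probes was -1.19 within slide 1, -0.90 within slide 2, -0.44 under either the 75th percentile or no normalization (exact permutation p = 0.0397), -0.46 when miR-1225-3p replicate 5 was left out as well (exact permutation p = 0.0556), and between -1.27 and -0.88 with each array left out. For MT1X it was 5.09 within slide 1, 3.27 within slide 2 and between 3.73 and 5.01 with each array left out. With normexp the MT1X difference was 3.20 (exact permutation p = 0.0476). Under either the 75th percentile or no normalization it was 4.27 (exact permutation p = 0.0397), and 5.37 when miR-1225-3p replicate 5 was left out as well. A single slide has too few arrays for these exact tests to reach 0.05. The MT1H probe A_33_P3368313 turned positive with quantile normalization (0.0086), array weights (0.13) and without miR-1225-3p replicate 1 (0.0657), and ranged from -0.30 to 0.0657 with each array left out. Of the 26 alternatives, MT1M lost its call in 15, MT2A in 10, MT1F in 2 and the MT1X probe A_33_P3236868 in 2. The cause of these changes was not tested.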
